A study of Mus musculus with 12 samples.

Results

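Collagens and laminins, families of structural proteins of the extracellular matrix, were followed in cultured mouse neurospheres. The genes were all those whose annotated symbol names a collagen alpha chain (Col, number, a, number) or a laminin alpha, beta or gamma chain. This gave 57 probes of 50 genes, among 21738 probes and 15081 genes with a symbol on the array. They fell into 11 fibrillar collagen genes (12 probes), 8 basement membrane collagen genes (8 probes), 21 other collagen genes (24 probes) and 10 laminin genes (13 probes). The genes Col6a5, Col6a6, Col20a1 and Col28a1 had no probe with their symbol and were not analysed here.

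Neurospheres are aggregates of neural stem and progenitor cells that grow in suspension. They were derived from mouse cortex of gestational day 12.5 and grown without serum in basic FGF, EGF and LIF, in 4 groups of 3 arrays. Control cultures at 24 h and at 108 h received growth medium alone. Prominin cultures at 24 h and at 108 h received medium with an adenovirus carrying CD133/R-prominin1, a membrane glycoprotein used as a stem cell marker. The treatment text gives 108 h for the 24 h prominin cultures also, and the time in their titles was used. The design text speaks of cells positive for GFP or prominin, so effects of the virus and of prominin-1 cannot be told apart. The strain of the neurospheres is not given in the sources used here. Each array set 1 neurosphere RNA (Cy5) against a shared RNA of whole C57/Bl6 embryos of gestational day 12 (Cy3). Whether the replicates of a group came from separate cultures is not stated. The p-values therefore reflect only how far these samples differed from each other.

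Values are log2 ratios of neurosphere to embryo RNA, centred on each array so that 0 is the median over the 4532 probes with a value on every array. They are ratios and not amounts of RNA, and 1 unit is a doubling of the ratio. Before centring the array medians lay between −2.59 and −0.84. Its direction is not stated in the labels and was read as sample over reference, under which neural stem markers were high (median 3.21, 11 of 18 tested probes called higher and 4 lower) and liver and yolk sac markers low (median −5.96, 5 of 5 called lower). Exact zeros and the top value of 16.61 were taken as missing. The number of probes with a value was then 10404 to 14465 per array at 24 h, and between 15944 and 16598 at 108 h. At 24 h 16.8 to 40.2% of these values were small whole-number ratios (up to 20, within 0.001 on the log2 scale), compared with 2.15 to 5.49% at 108 h. Time therefore cannot be told apart from these differences between the arrays. In RNA from whole cultures, fewer cells of a type and less RNA per cell cannot be told apart either.

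Collagens are trimers of alpha chains wound into a triple helix. Fibrillar collagens are made as procollagens, trimmed outside the cell and crosslinked into the fibrils of skin, bone, cartilage and tendon. Type IV collagen forms the sheet-like network of basement membranes, the layer on which epithelia, vessels and the brain surface rest. Laminins are cross-shaped trimers of an alpha, a beta and a gamma chain, and build the other network of that layer. In the developing cortex the end feet of radial glia attach to a basement membrane beneath the meninges.

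Of the 684 values of the 57 probes, 473 were measured, 198 were exact zeros and 13 held the top value. There were 46 probes of 43 genes measured on at least 6 arrays, and levels are given for these. The 11 other probes include all probes of Col4a3, Col8a1, Col8a2, Col13a1, Col25a1, Lama1 and Lamc3. Only 23 probes of 22 genes had at least 2 values in every group and could be tested, so counts of tests are not counts over all 50 genes. Of the 4 classes fibrillar collagen probes were measured most often, in 86.1% of values at 24 h and 87.5% at 108 h. Over all probes these shares were 60.8 and 75.3%, and over laminins 59.0 and 70.5%.

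The upstream sequences of 3 fibrillar collagen genes are shown as examples. Col5a3 was the only one of the 22 tested genes called over time. Col1a2 and Col3a1 were low on every array that measured them, as were others of the class such as Col1a1. Each sequence is the 250 bases before the gene's start from RefSeq (build GRCm38.p6), 5′ to 3′ on the gene's strand. Capitals mark the TATA box word TATAAA, the CCAAT box word CCAAT and the GC box word GGGCGG on either strand, and the matches shown do not overlap. Col5a3 lies at chr9:20815068-20815317 (minus strand), Col1a2 at chr6:4505368-4505617 (plus strand) and Col3a1 at chr1:45311288-45311537 (plus strand).
Col5a3: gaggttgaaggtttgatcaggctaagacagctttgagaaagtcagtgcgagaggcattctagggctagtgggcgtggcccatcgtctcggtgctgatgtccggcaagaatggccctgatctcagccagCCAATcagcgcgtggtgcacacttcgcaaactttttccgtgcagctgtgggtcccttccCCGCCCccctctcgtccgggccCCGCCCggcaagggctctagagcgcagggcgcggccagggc
Col1a2: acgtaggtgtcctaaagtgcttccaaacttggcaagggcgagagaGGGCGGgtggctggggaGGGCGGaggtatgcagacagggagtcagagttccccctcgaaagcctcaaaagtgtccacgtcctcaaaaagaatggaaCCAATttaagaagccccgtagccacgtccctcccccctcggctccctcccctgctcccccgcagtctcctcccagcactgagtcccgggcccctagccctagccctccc
Col3a1: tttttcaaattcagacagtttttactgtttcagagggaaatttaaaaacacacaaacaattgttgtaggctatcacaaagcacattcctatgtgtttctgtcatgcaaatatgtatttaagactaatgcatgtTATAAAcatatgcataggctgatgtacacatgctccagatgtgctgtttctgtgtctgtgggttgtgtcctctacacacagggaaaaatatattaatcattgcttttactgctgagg
The Col5a3 and Col1a2 sequences are both rich in G and C, at 62.8 and 62.0%, and each holds 1 CCAAT and 2 GGGCGG matches and no TATAAA. The Col3a1 sequence has 35.2% G and C, 1 TATAAA match and neither of the other motifs. These 3 words thus do not separate Col5a3 from Col1a2, whose ratios lay far apart. Promoters were matched for 36 of the 50 genes (40 windows). GGGCGG occurred in 6 of 8 fibrillar windows, 4 of 8 basement membrane windows, 10 of 18 windows of other collagens and 2 of 6 laminin windows, and in 32.7% of all 32851 windows. TATAAA occurred in 2, 0, 3 and 0 windows of the same classes and in 12.4% of all windows. CCAAT occurred in 3, 4, 6 and 1 of them and in 33.8% of all windows. Median G and C content was 59.4% for the members and 52.4% for all windows. Col4a1 and Col4a2 lie head to head on opposite strands, and their windows of 300 bases overlap by 78 bases.

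Fibrillar collagens lay far below the median probe, with 1 exception. Of the 11 genes 10 had a mean below 0 and 1, Col5a3, a mean above it, and the median of the gene means was −3.07. Of 9 tested probes 8 were called lower and 1 higher by limma against the median probe. For comparison, 25.5% of all 9155 tested probes were called lower, 30.4% higher and 55.8% in either direction. Over the 23 member probes 12 were called lower and 5 higher. The median over the members was −1.13 and over all tested probes 0.23.

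Col1a1 and Col1a2 encode the chains of type I collagen, the main fibril of skin and bone. Col1a1 was measured on all 12 arrays, from −8.53 to −2.63 with a median of −6.28. All of its values were far below 0, and its ratio to the embryo before centring ran from 0.000977 to 0.0323. In the limma fit its level was −6.20 (SE 0.34, adjusted p = 1.11e-07). Col1a2 ran from −6.96 to −3.98 on 10 arrays, with a level of −5.62 (SE 0.37, limma adjusted p = 1.82e-06). Both type I chains were thus low on every array that measured them. Type III collagen, the fibril of vessels and loose tissue, followed with Col3a1 between −6.53 and −2.20 on 11 arrays (level −4.81, SE 0.29, limma adjusted p = 4.74e-07). Col2a1, the cartilage collagen, was measured on 9 arrays and was not tested. Its values ran from −7.73 to −4.01, with a mean of −5.86 ± 1.4 (SD, n = 9).

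The deposited values end at −10, with 140 values in the lowest step of 0.5, 179 in the step above it and 0 below −10. Before centring, 5 member values lay in the lowest of these steps, on the probes of Col1a1, Col2a1, Col6a1 and Col6a3. For these genes the lowest readings lie at the edge of the table, and whether lower ratios were recorded as zero was not tested.

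Types V and XI are minor fibrillar collagens that sit inside the type I and type II fibrils. The 3 type V chains did not share a level. Col5a1 ran from −5.85 to −2.51 on 11 arrays (level −3.91, SE 0.36, limma adjusted p = 9.04e-06). Col5a2 held the narrowest range of the class, from −3.17 to −1.44 on 12 arrays, with an SD of 0.64 (level −2.36, SE 0.23, limma adjusted p = 7.95e-06). Col5a3, the third chain, lay above the median probe on 11 of 12 arrays, with a level of 2.76 (SE 0.32, limma adjusted p = 2.92e-05). Col11a1 was low by both of its probes, with levels of −3.07 (SE 0.27, adjusted p = 3.61e-06) and −2.22 (SE 0.48, adjusted p = 0.00347) in limma. Col11a2 was measured on 7 arrays and ranged from −5.33 to 0.56. Col24a1 and Col27a1 are later-found fibrillar chains. Col27a1 was called lower (−2.34, SE 0.54, limma adjusted p = 0.00526), and Col24a1 spread from −4.76 to 2.96 on 9 arrays around a mean of −0.29.

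**Figure D1:**
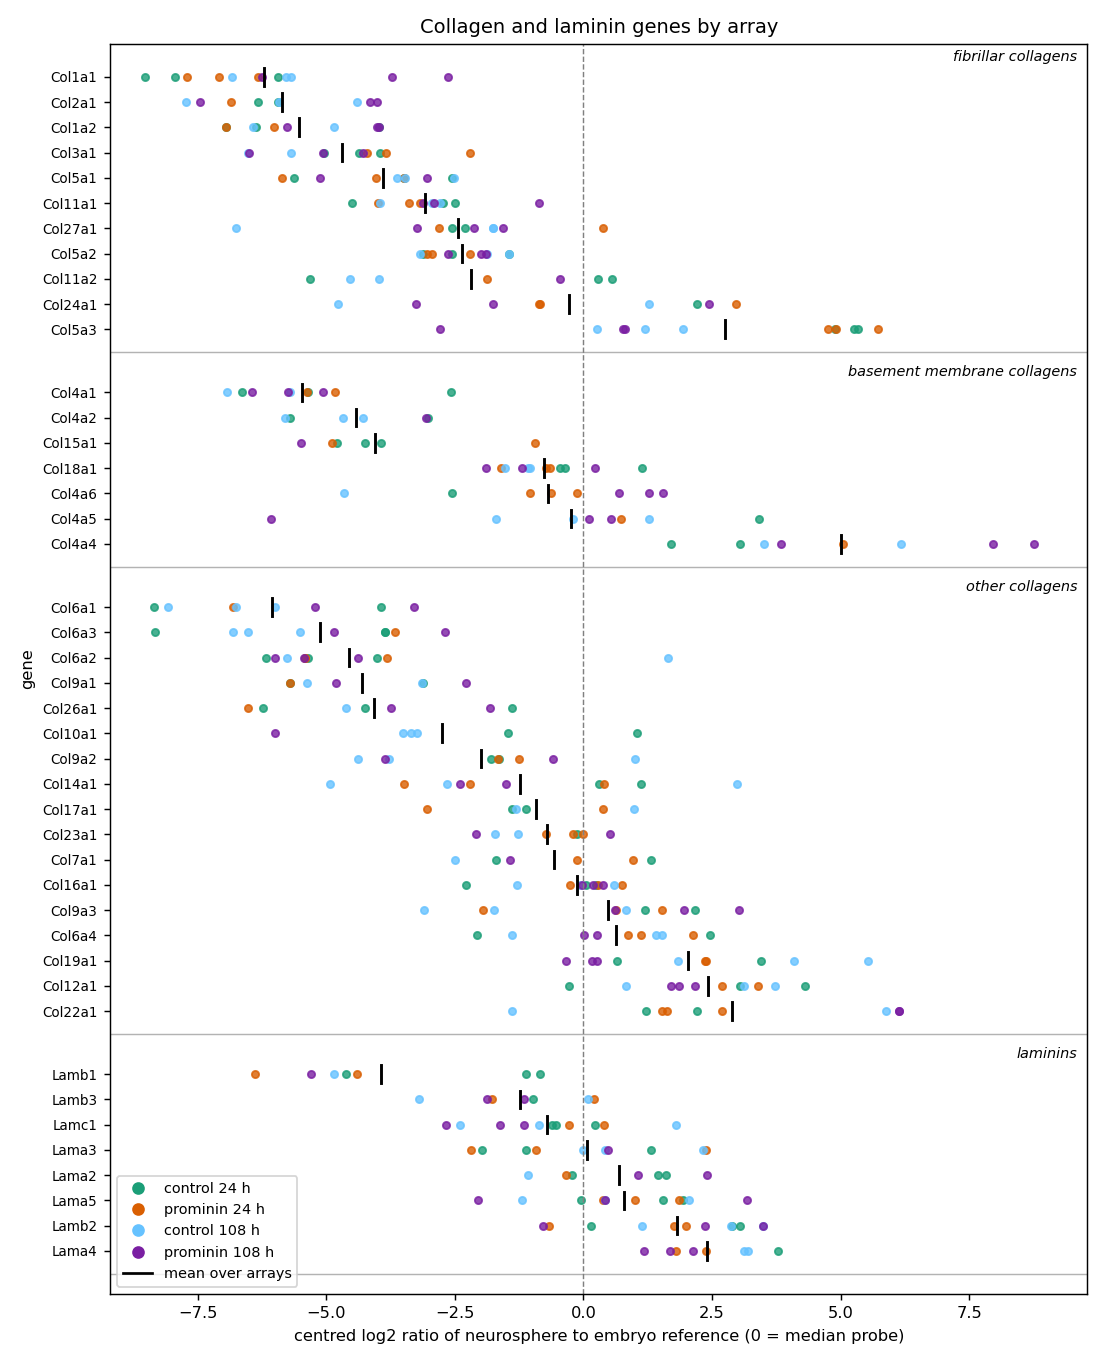
Centred log2 ratio of neurosphere to embryo RNA (horizontal axis, 0 = median probe) for the 43 genes with a probe measured on at least 6 arrays, by class. Each point is 1 array, coloured by group, and the black tick is the mean over arrays. Fibrillar genes run from Col1a1 at −6.20 to Col5a3 at 2.76, and the 6 points of Col5a3 at 24 h all lie above its 6 points at 108 h.

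Basement membrane collagens divided between the common and the tissue-restricted type IV chains. Col4a1 and Col4a2 encode the pair found in almost every basement membrane, and both were low. Col4a1 ran from −6.92 to −2.57 on 10 arrays, with a median of −5.54 (level −5.50, SE 0.39, limma adjusted p = 3.19e-06). Col4a2 was measured on 6 arrays, all between −5.80 and −3.02, and was not tested. The chains of restricted tissues, known best from the kidney filter, the inner ear and the eye, lay higher. Col4a4 had a mean of 5.01 ± 2.47 (SD, n = 8 arrays) and ran from 1.70 to 8.77, so all of its measured values were above the median probe. Its ratio before centring ran from 0.8 to 127. Col4a5 (mean −0.24, −6.08 to 3.41, 8 arrays) and Col4a6 (mean −0.68, −4.65 to 1.54, 8 arrays) lay on both sides of 0. None of these 3 genes could be tested, and 4 of 12 arrays gave Col4a4 no value.

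Col15a1 and Col18a1 encode collagens that carry sugar chains and sit at the edge of basement membranes, and Col18a1 also yields the fragment endostatin. Col15a1 was low on all 6 arrays that measured it, from −5.48 to −0.94. Col18a1 was measured on 12 arrays, from −1.89 to 1.15 with a median of −0.89, and was called lower with a small margin (−0.77, SE 0.25, limma adjusted p = 0.0203). It no longer passed when control 24 h replicate 2, control 24 h replicate 3 or prominin 24 h replicate 3 was left out (−0.71 to −0.69). Of the 8 genes, 2 could be tested and both were called lower, against 25.5% of all tested probes.

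The other collagens were mixed. Of 17 genes measured on at least 6 arrays 12 had a mean below 0 and 5 above, with a median of −0.92. Of 9 tested probes 2 were called lower and 3 higher, near the shares over all tested probes (25.5% lower, 30.4% higher). These counts thus do not set the class apart. Type VI collagen, which forms beaded filaments around cells, was low by its 3 classical chains. Col6a1 lay between −8.35 and −3.29 on 8 arrays (mean −6.06 ± 1.82, SD). Col6a2 had 10 of 11 values between −6.17 and −3.81 and 1, control 108 h replicate 2, at 1.64. Its level was −4.35 (SE 0.57, limma adjusted p = 1.13e-04). The Col6a3 probe measured most often averaged −5.12 ± 1.82 (SD, n = 9), and the 2 others −3.58 (n = 4) and 2.08 (n = 5), so the probes of this gene disagree. Col6a4, a chain added later to the family, lay near the median probe (0.56, limma adjusted p = 0.332).

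Type IX collagen coats cartilage fibrils. Col9a1 averaged −4.31 on 7 arrays without a test, and Col9a3 was not called (0.57, limma adjusted p = 0.288). Col9a2 was called lower (−1.95, SE 0.60, limma adjusted p = 0.0234). Its call was lost on leaving out replicate 2 or 3 of either 24 h group, or prominin 108 h replicate 2, where the level was −1.54. Col26a1 was low on all 7 arrays that measured it (mean −4.08). The genes called higher were Col12a1, Col19a1 and Col22a1, which all encode collagens that bind to fibrils or to basement membranes and have interrupted helices. The type IX genes, Col14a1 and Col16a1 belong to the same group, and none of them was called higher. These calls thus do not describe the group as a whole. Col12a1 ran from −0.28 to 4.32 on 11 arrays (2.47, SE 0.42, limma adjusted p = 6.67e-04). Col19a1 ran from −0.33 to 5.53 on 10 arrays (2.07, SE 0.40, limma adjusted p = 0.00193), and Col22a1 from −1.40 to 6.14 on 9 arrays (3.01, SE 0.66, limma adjusted p = 0.00471). These 3 calls are relative to the median probe. On the values as deposited the levels were 0.90, 0.47 and 1.41 and none passed. Col14a1 (−1.13, limma adjusted p = 0.196) and Col16a1 (−0.12, limma adjusted p = 0.72) were not called.

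Laminin genes lay around the median probe. Of 8 genes measured on at least 6 arrays 3 had a mean below 0 and 5 above. A call higher was made for 1 of 3 tested probes, where the share over all tested probes was 30.4%. Among alpha chains, which carry the sites for receptors, Lama4, the chain of vessel walls, was above 0 on all 8 arrays that measured it, from 1.18 to 3.79. Lama5 ran from −2.04 to 3.18 on 12 arrays and was not called (0.79, SE 0.43, limma adjusted p = 0.139). Lama2, the chain of muscle, averaged 0.70 on 7 arrays. The 3 Lama3 probes averaged 0.07 (n = 10), 2.13 (n = 8) and 1.32 (n = 4). Both probes of Lama1, the main alpha chain of the early embryo, had only 5 values, from −2.81 to 1.69 and from −0.74 to 3.61.

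The 2 widespread beta chains lay apart. Lamb1 was low on all 7 arrays that measured it, from −6.38 to −0.84, with a mean of −3.93 ± 2.12 (SD). Lamb2, the beta chain of nerve-muscle contacts and of the retina, lay above the median probe on 10 of 12 arrays, from −0.78 to 3.50 with a median of 2.18 (1.81, SE 0.44, limma adjusted p = 0.00452). On the values as deposited it lay at 0.21 and did not pass. The difference between both genes was not tested. Lamb3, the beta chain of skin, averaged −1.24 on 7 arrays. Lamc1, the gamma chain of most laminins, ran from −2.68 to 1.80 and was not called (−0.64, SE 0.36, limma adjusted p = 0.153).

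The order of the classes was alike on most arrays. The median over fibrillar genes was below 0 on 12 of 12 arrays, from −5.03 to −2.55, with a mean of −3.43 ± 0.67 (SD over arrays). It was −1.88 ± 1.65 for basement membrane collagens (10 of 12 arrays below 0), −0.95 ± 0.86 for other collagens (11 of 12) and 0.40 ± 0.91 for laminins (4 of 12). The fibrillar median was below that of laminins and of other collagens on 12 of 12 arrays, and below that of basement membrane collagens on 10. Basement membrane collagens lay below other collagens on 9 arrays and below laminins on 11, and other collagens below laminins on 10. The genes measured differed between arrays, and basement membrane medians rest on 3 to 6 genes. Over gene means in place of array medians, basement membrane (−0.77) and other collagens (−0.92) were in the opposite order, so no order is given for this pair. Taken by time, an alternative added after the data were seen, the medians of gene means at 24 h were −3.38 for fibrillar collagens, −1.08 for basement membrane collagens, −0.52 for other collagens and 0.23 for laminins. At 108 h, where far more probes had a value, they were −2.99, −1.01, −1.14 and 0.62. The fibrillar class was thus the lowest and the laminins the highest at each time. Before centring the class median of laminins was −1.24 and no longer above 0, while the fibrillar median was −4.67.

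**Figure D2:**
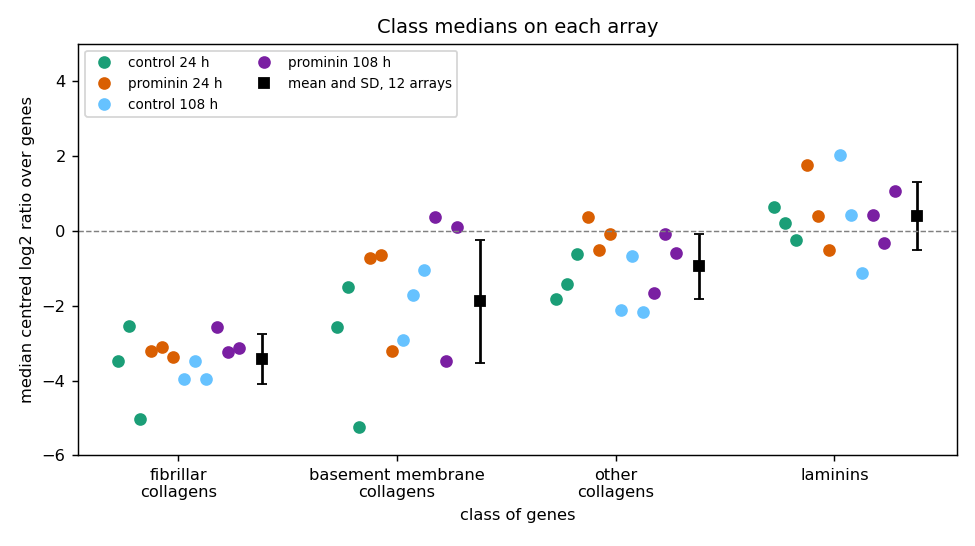
Median centred log2 ratio over the measured genes of each class (vertical axis, 0 = median probe) on each array. Points are arrays, coloured by group, and squares with bars are the mean and SD over 12 arrays. The fibrillar points lie between −5.03 and −2.55, below every laminin point.

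Col5a3 fell between 24 h and 108 h, and was the only member called in any of the 7 contrasts between groups. In control cultures at 24 h its centred values were 4.89, 5.33 and 5.26, and in prominin cultures at 24 h 4.75, 5.72 and 4.92. At 108 h they were 0.27, 1.20 and 1.94 in controls, and 0.77, −2.79 and 0.81 in prominin cultures. All 6 arrays at 24 h lay above all 6 arrays at 108 h, and prominin 108 h replicate 2 was the lowest. On the scale of the deposited ratios, RNA of the 24 h cultures gave 7.20 to 24.0 times the signal of embryo RNA, and that of the 108 h cultures 0.0422 to 1.54 times. The mean fell from 5.15 ± 0.36 (SD, n = 6) to 0.37 ± 1.64. Averaged over both kinds of culture the difference was −4.78 on the log2 scale (SE 0.64, limma adjusted p = 0.0247). By p-value it was the 4th and by estimate the 2nd lowest of 9155 probes. In this contrast 0.0109% of all probes were called lower (1 probe, Col5a3) and 0.0437% higher (4 probes), 0.0546% together, and 1.86% had groups that did not overlap.

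The estimate had the same sign in both kinds of culture. It was −4.02 in controls (SE 0.91, limma adjusted p = 0.408) and −5.53 in prominin cultures (SE 0.91, limma adjusted p = 0.0888), and neither passed alone. The difference between these estimates was −1.51 (SE 1.29, limma adjusted p = 0.877). No value of Col5a3 was missing, and none was a whole-number ratio up to the limit of 20. Its highest value, prominin 24 h replicate 2, was a ratio of 24.0 before centring, a whole number past that limit. The call over both kinds of culture did not hold in every alternative. Leaving out any 1 of the 24 h arrays or of the control 108 h arrays gave adjusted p-values of 0.0586 to 0.138, and leaving out a prominin 108 h array gave 0.0117 to 0.0417. With the replicate number as a block the limma adjusted p was 0.117. The estimate stayed between −5.59 and −4.18 in all alternatives run.

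**Figure D3:**
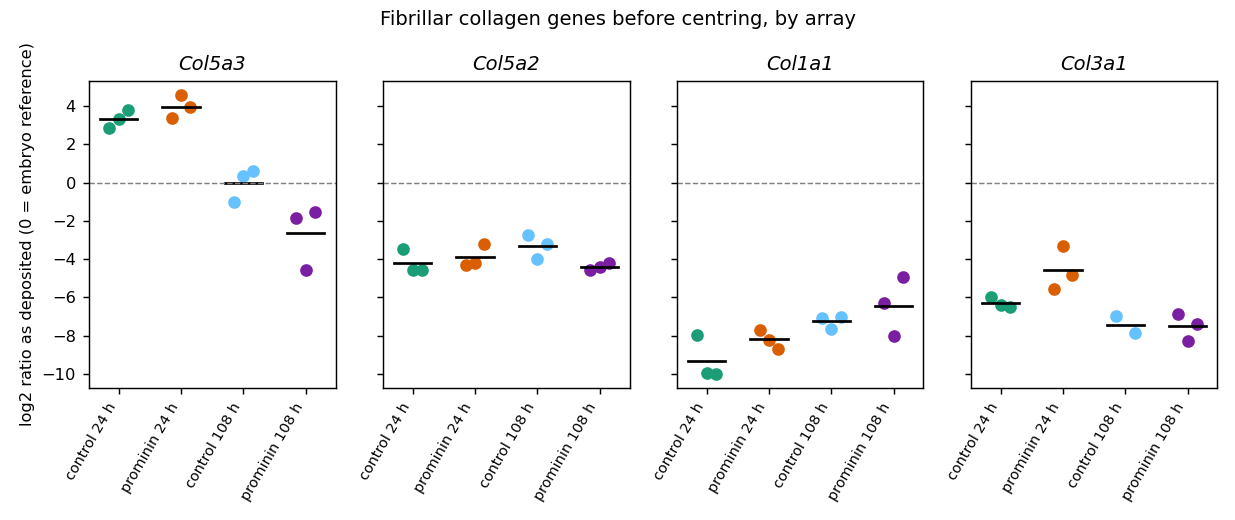
Log2 ratio of neurosphere to embryo RNA as deposited, before centring (vertical axis, 0 = embryo reference), for Col5a3, Col5a2, Col1a1 and Col3a1 in the 4 groups. Points are arrays and bars are group means. Col5a3 lies above the reference on all 24 h arrays and reaches from 0.0422 to 1.54 times the reference at 108 h, while the other genes lie below the reference on every array that measured them.

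No other fibrillar chain passed a test over time. Col5a2, a partner of Col5a3 in type V collagen, kept to its narrow range at both times. Col1a1 read −5.94, −7.94 and −8.53 in controls and −6.32, −7.08 and −7.71 in prominin cultures at 24 h. At 108 h it read −5.79, −6.84 and −5.69, and −3.71, −6.25 and −2.63. The 2 highest values were both from prominin cultures at 108 h, and the times overlapped. The difference over both kinds of culture was 2.10 (SE 0.68, limma adjusted p = 0.326). Col3a1 differed in the other direction by −1.77 (SE 0.58, limma adjusted p = 0.342). With these, the 3 smallest p-values in each direction belonged to Col22a1 (2.36) and Col1a2 (1.01) among higher estimates and to the Col11a1 probe measured on 10 arrays (−1.44) among lower ones, and none of the 3 passed. Over the 23 probes 9 estimates were above and 14 below 0, with a median of −0.47 against −0.03 over all probes. There were 3 members with an unadjusted p under 0.05, and 888 of the 9155 probes.

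Taken singly, neither time contrast called a member. In controls 0.0% and in prominin cultures 0.0218% of all probes were called (2 probes, both higher). An unadjusted p under 0.05 was found for 2 members in controls (635 of all probes) and 4 in prominin cultures (807 of all probes). Groups that did not overlap were found for 4 of 23 members in controls, where the share over all probes was 18.6%. In prominin cultures they were found for 10 of 23 members, where the share was 19.6%. Of these 10, Col1a2, Col6a4, Col12a1, Col19a1, Col22a1 and Lamc1 had only 2 values in 1 of the groups compared, and so few values separate more easily. Whether the members exceeded the share was not tested. In prominin cultures Col1a1 (2.84), Col22a1 (4.19) and Col1a2 (1.90) had higher and Col5a3, Col3a1 (−1.87) and Col19a1 (−2.34) lower means at 108 h, with limma adjusted p-values of 0.0888 to 0.654. In controls Col6a2 (3.12), Col19a1 (1.76) and Col1a1 (1.37) had higher means, and Col5a3, Col9a3 (−3.01) and the second Col11a1 probe (−2.97) lower ones. The Col6a2 value rested on control 108 h replicate 2, and was −0.58 without it.

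Prominin and control cultures showed no called difference in any of the 23 tested collagen and laminin probes. At 24 h 0.0% of the 9155 probes were called, 0 of 23 members had an unadjusted p under 0.05 (419 of all probes), and the members' median was −0.03 with 11 estimates above and 12 below 0. Only Col18a1 had groups that did not overlap, against 16.5% of all probes. It read 1.15, −0.46 and −0.36 in controls and −0.74, −0.65 and −1.60 in prominin cultures, which is −1.10 as a difference of means (SE 0.69, limma adjusted p = 0.998). The next by p-value in each direction were Col3a1 (1.04), Col16a1 (0.92) and Col6a4 (1.17) upward, and the second Col11a1 probe (−1.88) and Col14a1 (−2.47) downward, all with limma adjusted p = 0.998.

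At 108 h 0.0% of probes were called as well, and 2 members, Col19a1 and Col9a3, had an unadjusted p under 0.05 (624 of all probes). Groups did not overlap for 2 members, Col19a1 and Col22a1, and for 15.8% of all probes. Col19a1, the chain of a collagen found at synapses and in embryonic muscle, read 5.53, 4.09 and 1.84 in controls and 0.27, −0.33 and 0.17 in prominin cultures. Its 3 control values lay above its 3 prominin values, and the means differed by −3.78 (SE 1.02, limma adjusted p = 0.669). Col9a3 read −1.74, 0.83 and −3.09 in controls and 1.96, 3.02 and 0.61 in prominin cultures, and these ranges overlapped (3.20, SE 1.17, limma adjusted p = 0.717). Col22a1 had 2 values in each group, −1.40 and 5.89 against 6.13 and 6.14, so a single control array makes the difference of 3.89 (SE 1.94, limma adjusted p = 0.732). Col1a1 (1.91, adjusted p = 0.732), Col6a2 (−3.20, 0.739) and Col5a3 (−1.54, 0.754) were next within their direction in limma. Without control 108 h replicate 2 the Col6a2 difference was 0.50.

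The prominin difference at 108 h minus that at 24 h was tested as an interaction, and 0.0% of probes were called. An unadjusted p under 0.05 was found for 2 members, Col9a3 (4.80, SE 1.76) and Col19a1 (−4.09, SE 1.61), both with limma adjusted p = 0.817, and for 545 of all probes. The next in each direction were the second Col11a1 probe (3.05) and Col18a1 (1.36) upward and Col6a2 (−3.50) and Lamc1 (−1.71) downward. Averaged over both times no member had an unadjusted p under 0.05 (463 of all probes), 0.0% were called, and no member's groups were apart, against 0.502% of all probes. The 3 smallest p-values among higher estimates belonged to Col1a1 (1.17), Col3a1 (0.93) and Col22a1 (2.06), and among lower ones to Col19a1 (−1.74), Col6a2 (−1.45) and Col5a3 (−0.79), all with a limma adjusted p of 0.959. The median SE of a member's difference was 1.21 at 24 h and 1.12 at 108 h, which limits what could be detected. The time contrasts and the prominin contrasts share arrays and are not independent of each other.

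**Figure D4:**
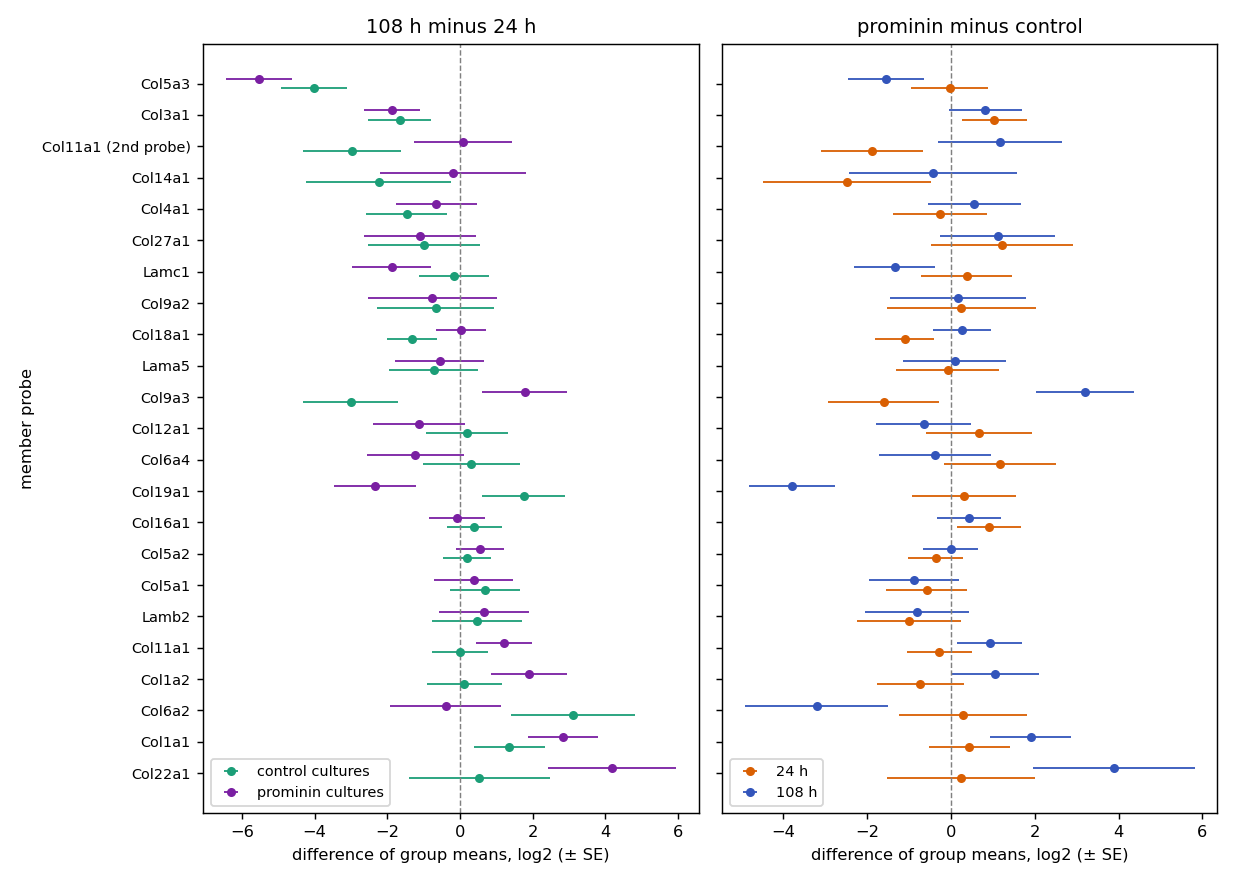
Differences of group means (horizontal axes, log2, with SE) for the 23 tested member probes. The left panel shows 108 h minus 24 h in control and prominin cultures, and the right panel prominin minus control at each time. Col5a3 has the lowest values in the left panel, −4.02 and −5.53, and in the right panel Col19a1 at 108 h lies at −3.78.

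Genes that fold, trim and crosslink collagen were mostly low or near the median probe. Of 20 genes with a probe 15 were tested, 9 were called lower and 0 higher, and the median level was −1.08. Over all tested probes 25.5% were called lower and 30.4% higher. The lowest p-values belonged to the crosslinking lysyl oxidases Loxl2 (−4.14, SE 0.31), Loxl1 (−2.60, SE 0.28) and Lox (−3.95, SE 0.48) and to Pcolce (−4.96, SE 0.39), an enhancer of procollagen trimming, with limma adjusted p-values of 1.01e-06 to 1.72e-04. A second Loxl2 probe, measured on 7 arrays and not tested, averaged 1.01. All 4 genes thus lay below the median probe by their tested probe, as did the type I chains that their products act on.

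Other proteins of basement membranes lay on both sides of the median probe. Of 9 tested probes 3 were called higher and 4 lower (median 0.38), against 30.4 and 25.5% of all tested probes. Nid1 (−3.65, SE 0.30) and Nid2 (−3.14, SE 0.30), the nidogens that link the laminin and type IV networks, were low, with limma adjusted p-values of 4.14e-06 and 1.03e-05. The agrin gene Agrn was low by 1 probe (−1.71) and not called by another (0.52, limma adjusted p = 0.255). Those called higher were the netrin gene Ntn4 (2.71, SE 0.30, limma adjusted p = 3.43e-05), the perlecan gene Hspg2 (4.72) and Smoc1 (1.49), of which Hspg2 and Smoc1 were named after their values were seen.

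Receptors and fibril partners are given for comparison. Their counts stand beside shares of 30.4% called higher and 25.5% called lower over all tested probes. Of 9 tested receptor probes 3 were called higher and 4 lower (median 0.54). Adgrg1 (4.47, SE 0.39, limma adjusted p = 3.35e-06), a receptor for type III collagen on neural progenitors, the collagen receptor kinase gene Ddr1 (2.87) and the laminin receptor gene Bcam (2.79) were high. Col3a1, which encodes the ligand of Adgrg1, was at −4.81. Rpsa, a ribosomal protein gene that is also named for laminin binding, was low by both probes (−3.27 and −3.60). Of 17 probes of other matrix genes 3 were called higher and 11 lower (median −2.25). The brain proteoglycan gene Ncan was high (3.57, SE 0.19), whereas Fbln1 (−4.59), Bgn (−3.63) and Dcn (−5.75), whose products associate with fibrils or elastic fibres, were low, with limma adjusted p-values of 1.01e-07 to 1.96e-06. Of 8 probes of metalloproteinases and their inhibitors 3 were called higher and 4 lower (median −0.09). By p-value the inhibitor genes Timp1 (4.60) and Timp4 (6.11) led upward and the protease genes Mmp2 (−3.70) and Mmp3 (−1.31) downward. The protease gene Mmp19 (1.65) was also called higher, and the inhibitor gene Timp2 (−1.95) and the protease gene Mmp14 (−0.63) lower. Calls in this list thus did not divide by function, and Mmp19, Timp2 and Mmp14 were named after their values were seen. No probe of these 5 lists was called in any contrast between groups. Few probes were called at all in these contrasts. The shares over all tested probes were 0.0546% over time in both kinds of culture, 0.0218% over time in prominin cultures and 0.0% in the others.

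Markers of fibroblasts and meninges, of endothelial and mural cells and of cartilage and bone were also measured. Over all tested probes 25.5% were called lower and 30.4% higher. Of 11 tested fibroblast and meningeal probes 6 were called lower and 2 higher (median −2.27), with Twist1 at −5.20 and S100a4 at 5.53. Array medians over all probes of the tested genes ran from −1.33 to 1.45 at 24 h and from −2.51 to 0.53 at 108 h. They include further probes of S100a4, Thy1, Pdgfra and Ogn that were not tested, so they do not describe the tested probes alone. Of 7 endothelial and mural probes 5 were called lower and 0 higher (median −2.36), and of 7 cartilage and bone probes 3 were called lower and 0 higher (median −0.67). Endothelial array medians ran from −2.41 to −0.13 at 24 h and from −3.63 to −1.46 at 108 h. Dcn is counted in both the fibroblast and the matrix list, and Acan in both the cartilage and the matrix list. No marker probe was called over time, where at most 0.0546% of all tested probes were called in any time contrast. The part of these cells in the collagen ratios was not tested.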

How the data were processed

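Neurosphere RNA was hybridised to 12 two-colour arrays against shared embryo RNA, without a dye swap, per the labels. The deposited values were read as log2 ratios. No source used here names the scanner, the background correction or the normalization. Exact zeros and the top value of 16.61 were set to missing, and each array was centred on its median over 4532 probes. The 9155 probes that had 2 or more values in each group were fitted with limma 3.58.1 in R 4.3.3, with 1 mean per group and no covariate. The level (mean of the group means against 0) and 7 contrasts were tested, with Benjamini-Hochberg adjustment over all tested probes and a threshold of 0.05. The step over time was tested on simulated data. Symbols were taken from the platform's probe annotation, which can be old.

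The members and lists were chosen with earlier results of these data known. A gene with several probes is represented by the one measured on most arrays. Named were the members past the threshold and, where fewer than 3 passed in a direction, the next by unadjusted p up to 3, and up to 4 genes of each further list by the p-value of the level. Alternatives covered centring, quantile normalization, zeros, filters, variance moderation, the replicate block and leaving out each array. Same-numbered arrays of different groups had correlations of deviations of −0.067 to 0.122, and other-numbered arrays −0.12 to 0.121. Yet 9 of 12 arrays correlated best with one of their own number, so these ranges do not settle pairing. The labels give no pairs, and the main fit used none. The number of arrays limits the precision.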

Additional observations from a re-analysis of the deposited data

How the results depend on the processing

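The fibrillar median kept its sign under all alternatives (−3.27 to −2.94 when 1 array was left out), as did the calls of Col1a1, Col1a2, Col3a1, Col5a1, Col5a2, Col5a3 and Col4a1 against the median probe wherever they could be tested. Of 1594 values of named results under an alternative, 1542 kept direction and side of the threshold, 25 lost and 11 gained a call and 16 reversed. Most of these named results were not called in the main fit and had no call to lose. The total therefore does not measure how firm the calls are. The call of Col5a3 over time was lost under 11 of 25 alternatives, and that of the Col9a2 level under 7 of 23. Members called lower numbered 12, against 4 with at least 3 values in every group, 19 with at least 1 value in every group and 6 in all, and 10 to 15 without 1 array. Fewer or more probes could be tested there. Members called higher numbered 5, against 1 without centring, 16 with zeros kept, 2 and 8 under the same 2 filters, 3 with whole-number ratios missing, and 5 to 8 without 1 array (8 without control 24 h replicate 2). Over time, 1 member was called, against 0 with at least 1 value, 0 with the replicate number as a block (9 of 12 arrays correlated best with one of their own number, a hint of pairing from the data that the labels do not give) and 0 to 1 without 1 array (0 without any 1 of the 24 h or control 108 h arrays). In prominin cultures over time 0 were called, against 1 without centring, by quantile normalization and with at least 3 values, each time Col5a3 (−6.60, −6.25 and −5.53). Without centring the class medians were −4.67 (fibrillar), −2.35 (other collagens) and −1.24 (laminins). With zeros kept the median of other collagens was 0.17. All array medians before centring were below 0, so each kept zero entered that setting as a value above 0. Leaving out 1 array gave −0.96 to −0.43 for basement membrane collagens, −1.41 to −0.58 for other collagens and 0.24 to 0.51 for laminins. Over genes measured on all 12 arrays, chosen after seeing the data, the laminin median was 1.30. Reversed without centring were the levels of Lama5 (−0.81), Col9a3 (−1.01) and Col6a4 (−0.97) and the interaction of Col18a1 (−0.39). With zeros kept, Col1a2 over time in prominin cultures was −0.59, the second Col11a1 probe over time 0.11 and Col3a1 with prominin over both times −0.23. Over the fits that left out 1 array, the Col6a2 differences were −6.90 to 0.50 (prominin at 108 h), −7.20 to 0.20 (interaction), −0.58 to 6.82 (time in controls) and −3.30 to 0.40 (prominin over both times). Each reversed value was the one that lacked control 108 h replicate 2. The Col6a4 level was −0.0047 to 1.13 and its prominin difference at 24 h −1.09 to 3.44. The Col16a1 level, near 0, was 0.083 with whole-number ratios missing, and −0.23 to 0.083 over the fits that left out 1 array. The causes were not tested.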
